A study of Mus musculus with 12 samples.

Results

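The serpins of clade A (Serpina) are secreted protease inhibitors and hormone carriers made largely by hepatocytes. The 10 Serpina genes described here were selected by their symbols, Serpina1a, Serpina1b, Serpina1c, Serpina1d, Serpina1e, Serpina3k, Serpina3n, Serpina4-ps1, Serpina6 and Serpina12, with expression results of the same libraries in view. They are 10 of the 27179 genes counted and of the 29 genes that the mouse annotation names Serpina. Because the choice used these libraries, the differences of the 10 genes are descriptive, and the word "called" below, an adjusted p under 0.05 over all genes tested, is a label and not a test of them.

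RNA was measured in whole liver from 12 male mice, 1 library each, in 4 groups of 3. All were 8 weeks old when the diets began and were injected a week later. All 4 groups received plasmids through the tail vein under hydrodynamic pressure together with a Sleeping Beauty transposase (SB-HTVI), which places DNA into a fraction of hepatocytes, and all were harvested when the oncogene mice on chow reached their end point. CD Vec mice were on chow diet (CD) and received the empty vector. CD c-MET/β-catenin mice were on CD and received human c-MET with ΔN90-β-catenin, a form of β-catenin that escapes degradation, both driven by the EF1α promoter. The LPD Vec mice and the LPD c-MET/β-catenin mice received the same plasmids on a low-protein diet (LPD). Since SB-HTVI reaches only some hepatocytes, tumor, uninvolved hepatocytes and other liver cells are mixed in each library, and counts rest on C57BL/6 gene models. The study names the strain in conflicting ways, among them a mixed 129/Ola and C57BL/6 background for this tumor model.

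A serpin presents an exposed reactive centre loop to a protease, is cut there, and traps the enzyme as it refolds. In liver the best known member is α1-antitrypsin, which human beings make from 1 gene, SERPINA1, and which protects tissue from neutrophil elastase. The mouse has several neighbouring copies of this gene, Serpina1a to Serpina1e. Serpina3k and Serpina3n belong to the α1-antichymotrypsin branch, Serpina6 is corticosteroid-binding globulin, the plasma carrier of glucocorticoids, Serpina12 is vaspin, an inhibitor of kallikrein 7, and Serpina4-ps1 is a transcribed pseudogene.

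The 10 genes lie within 767.7 kb of chromosome 12, at chr12:103646630-104414334 of GRCm38.p6, in the order Serpina6, 1b, 1d, 1a, 1c, 1e, 12, 4-ps1, 3k and 3n. The Serpina1 copies have 5 exons and a coding length of 1239 bases each, and are 96.3% to 98.5% identical over that length. Serpina1a and Serpina1c are the closest pair, with 19 differences, and Serpina1b and Serpina1e are among the most distant, with 46. Only 86 of the 1239 coding positions, 6.9%, vary among the copies. The stretch of 60 bases that holds the most of them, 18, lies in exon 5 and codes for the reactive centre loop, the part that meets the protease. It is shown here because the copies are told apart in the libraries by such positions. It runs from coding base 1101 to 1160 of each GENCODE M21 transcript, on the minus strand, at chr12:103853757-103853816 for Serpina1a, chr12:103728324-103728383 for Serpina1b, chr12:103895094-103895153 for Serpina1c, chr12:103763762-103763821 for Serpina1d and chr12:103947100-103947159 for Serpina1e, and positions that vary among the 5 copies are in capitals.
Serpina1a: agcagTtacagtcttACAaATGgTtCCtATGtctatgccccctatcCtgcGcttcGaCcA
Serpina1b: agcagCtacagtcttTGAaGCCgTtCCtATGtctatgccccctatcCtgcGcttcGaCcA
Serpina1c: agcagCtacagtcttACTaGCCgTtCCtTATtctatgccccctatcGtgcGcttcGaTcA
Serpina1d: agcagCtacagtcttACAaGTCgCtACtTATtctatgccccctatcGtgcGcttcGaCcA
Serpina1e: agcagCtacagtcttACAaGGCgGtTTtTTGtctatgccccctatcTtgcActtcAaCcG

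This likeness bears on every value of a single copy. Of all stretches of 50 bases in the Serpina1a transcript, 19.1% are found in no other gene's transcript, and for Serpina1c the share is 20.7%. For Serpina1d it is 49.1%, for Serpina1b 52.9% and for Serpina1e 62.1%. The read length is given both as 50 bases and through the name of a 100-base module, so it is uncertain which length applies. With stretches of 100 bases the shares run from 30.7% for Serpina1c to 81.8% for Serpina1e. How reads that fit several copies were counted is not given in the sources used here, so the single copies are uncertain and the sum of the 5 copies is reported beside them. The other 5 listed genes stand alone more clearly. Serpina3k has 86.0% and Serpina3n 93.1% of their stretches of 50 bases to themselves, while Serpina4-ps1, Serpina6 and Serpina12 share none.

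Just upstream of the annotated starts the Serpina1 copies also resemble each other. RefSeq windows of GRCm38.p6, from 250 bases before to 50 bases after the start, were given for 7 of the 10 listed genes, and those of the copies are 91.7% to 98.4% identical where they align. Searched on both strands, the letters TTGCNNAA of the C/EBP family were found in 5 of the 7 windows, all but those of Serpina1c and Serpina3n, against 10.8% of all 32851 windows of that length. On either strand ATCAAAG, the letters bound by the TCF partners of β-catenin, were found only in the window of Serpina12, against 3.7% of all windows, and neither TTCNNNGAA of the STAT family nor TATAAA was found in any of the 7, against 8.3% and 13.6%. A stretch of 66 bases before the start is shown because it is nearly the same in all copies, including those whose levels differed most between groups. It differs at 6 positions, which are in capitals, and lies at chr12:103863625-103863690, chr12:103738200-103738265, chr12:103904962-103905027, chr12:103773634-103773699 and chr12:103956960-103957025 for Serpina1a to Serpina1e in turn, all on the minus strand.
Serpina1a: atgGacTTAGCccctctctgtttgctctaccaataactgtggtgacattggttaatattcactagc
Serpina1b: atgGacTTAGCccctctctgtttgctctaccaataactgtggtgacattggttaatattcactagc
Serpina1c: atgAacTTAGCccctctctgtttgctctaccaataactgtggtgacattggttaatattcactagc
Serpina1d: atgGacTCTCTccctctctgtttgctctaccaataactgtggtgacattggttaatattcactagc
Serpina1e: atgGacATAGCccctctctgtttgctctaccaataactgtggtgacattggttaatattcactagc

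The libraries held 19476209 to 31990267 counts. Glul and Axin2, targets of β-catenin, served as the check of the oncogenes, and both were higher in the c-MET/β-catenin mice on CD (8.59-fold and 9.58-fold) and on LPD (3.28-fold and 3.10-fold). The 5 hepatocyte markers that were tested summed to 70399 to 121191 CPM (counts scaled to a common library size) in all 12 libraries. Of the 6 neutrophil markers, which summed to 3.02 to 18.5 CPM, Ly6g was at 0 in 11 libraries, and S100a8, S100a9 and Csf3r were at 0 in none. Levels below are CPM scaled by the TMM method, and differences are log2 fold changes with their standard error (SE) from 1 edgeR fit over the 12 libraries.

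On CD, c-MET/β-catenin livers had lower levels of 6 of the 10 listed genes than Vec livers, namely Serpina1b, Serpina1c, Serpina1d, Serpina3k, Serpina4-ps1 and Serpina12, and none was called higher. Of all genes tested, 35.4% were called in this comparison and 16.7% were called lower. Lower genes made up 47.2% of all calls, or 21.2% when libraries were scaled by total counts, which moved the median of all genes to 0.278. The same 6 genes were lower in each of the 3 oncogene libraries than in any Vec library, as were 20.4% of all genes tested. The median of the 10 log2 fold changes was -1.22, and that of all genes -0.0101. Because the list was chosen with these results known, nothing is read from its share against those of all genes. Fewer hepatocytes and less RNA per hepatocyte cannot be told apart in these bulk samples. In the same comparison the 6 cholangiocyte markers summed to 36.8 to 46.3 CPM in CD Vec and, with the oncogenes, to between 121 and 382 CPM, with 2 of 5 tested called higher. Most of that sum was Spp1, at 368, 280.3 and 111 CPM in CD c-MET/β-catenin, and the other gene called was Krt19 (2.91, SE 0.32), while Krt7 (0.33, SE 0.53), Sox9 (-0.41, SE 0.35) and Epcam (-0.50, SE 0.44) were not called. The 6 markers of stellate cells and fibroblasts summed to 220.1 to 299 CPM in CD Vec and 247 to 596 CPM with the oncogenes, with Col1a1 (3.92, SE 0.65), Col3a1 (1.85, SE 0.44) and Reln (1.53, SE 0.29) called higher and Dcn (-1.30, SE 0.19) and Lrat (-1.42, SE 0.29) called lower. The hepatocyte markers summed to 105524 to 107385 CPM and 96382 to 107139 CPM, with 1 called higher and 2 called lower. T and NK cell markers summed to 1.82 to 2.5 CPM in CD Vec and 3.03 to 5.69 CPM with the oncogenes, with Cd8a (3.72) and Trac (1.64) called higher, as was the macrophage marker Cd68 (1.71), while the endothelial marker Clec4g (-1.09) was called lower. Of the 16 marker calls on CD, 4 were kept with a term for the 3 runs of output numbers in the headers of the count table (the run term), those of Krt19, Spp1, Dcn and Cd68, and Col1a1 then stood at 1.73 and Col3a1 at 0.56. Their part in the Serpina values was not tested. The run term leaves CD c-MET/β-catenin 3 alone to stand for its group, because replicates 1 and 2 are the only libraries of their run. A call lost with it therefore need not mean a smaller difference.

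**Figure D1:**
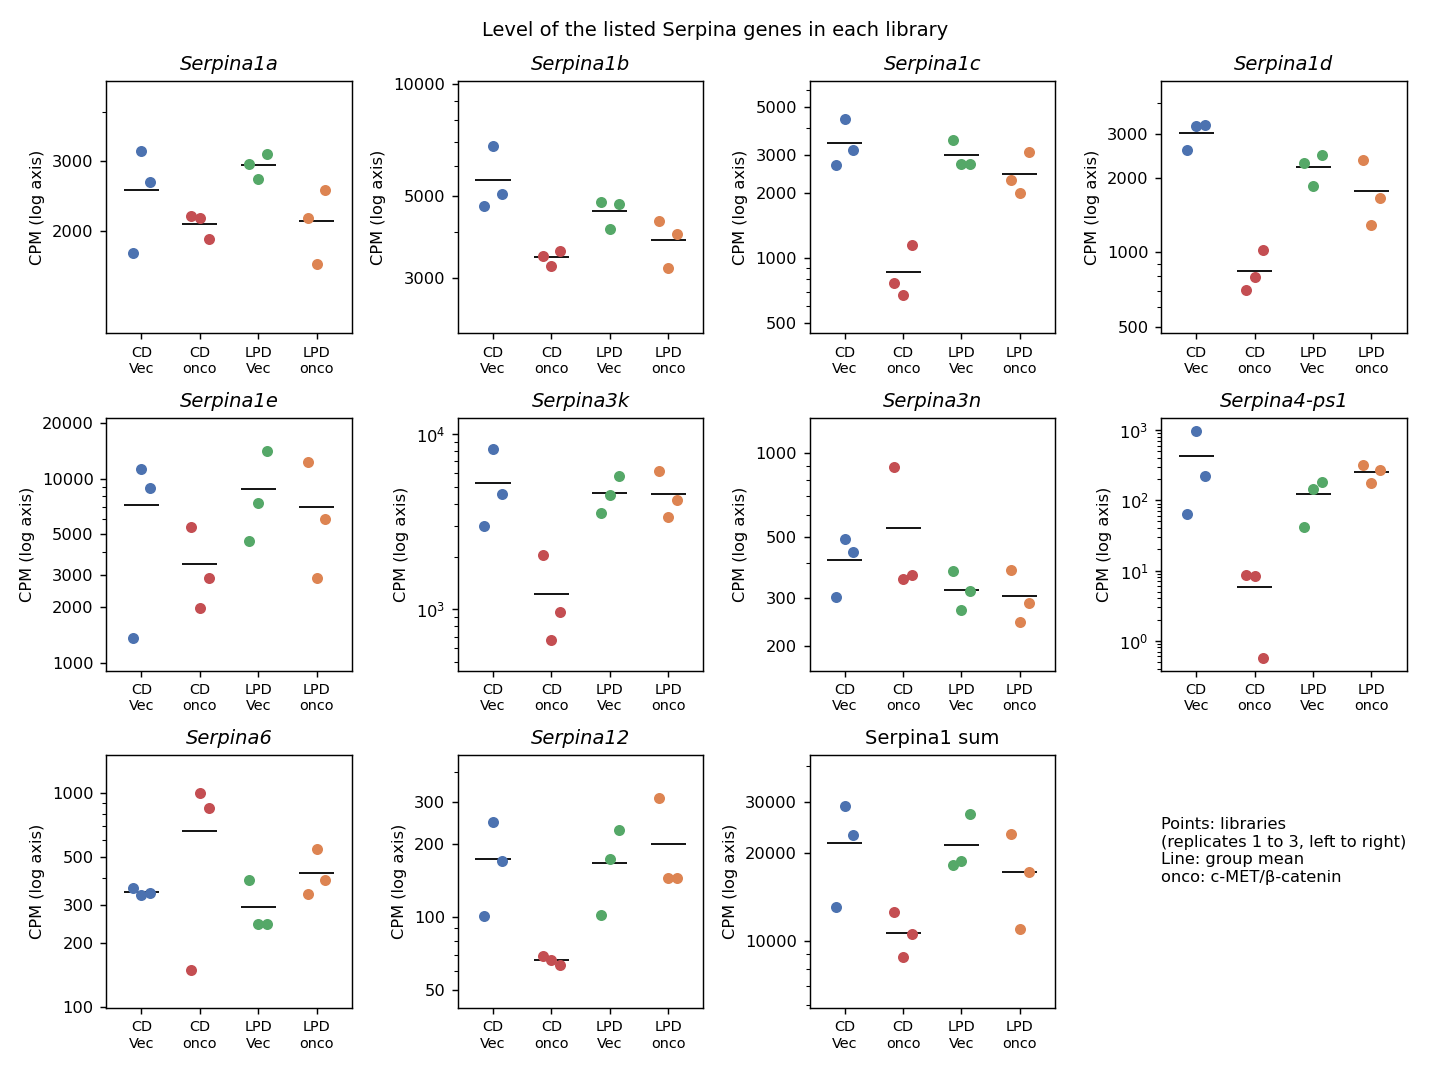
CPM on a log axis of each listed gene and of the Serpina1 sum in the 12 libraries, with points for libraries, lines for group means and "onco" for c-MET/β-catenin. Serpina1c, Serpina1d, Serpina3k and Serpina4-ps1 in CD c-MET/β-catenin sit below every library of the other 3 groups, as does Serpina12.

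Among the α1-antitrypsin genes, Serpina1c and Serpina1d differed most. Serpina1c was at 2704, 4387 and 3166 CPM in CD Vec and at 765, 672 and 1147 CPM in CD c-MET/β-catenin. In LPD Vec it was at 3519, 2729 and 2732 CPM and in LPD c-MET/β-catenin at 2289, 2005 and 3080.1 CPM. The CD c-MET/β-catenin libraries were thus the lowest 3 of the 12, and the LPD groups overlapped each other. Against Vec the log2 fold change was -1.99 (SE 0.26), 3.97-fold lower, on CD and -0.28 (SE 0.25) on LPD.

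Serpina1d followed the same course. It was at 2591, 3224 and 3269 CPM in CD Vec, at 706, 793 and 1020.0 CPM in CD c-MET/β-catenin, at 2290.4, 1850.2 and 2468 CPM in LPD Vec and at 2349.7, 1285 and 1663 CPM in LPD c-MET/β-catenin. Again the CD c-MET/β-catenin libraries lay below all others, although the next library, LPD c-MET/β-catenin 2, was close. Its log2 fold change against Vec was -1.85 (SE 0.23), 3.61-fold lower, on CD and -0.32 (SE 0.23) on LPD. Serpina1d was also the listed gene with LPD Vec below CD Vec in every library, a pattern that 9.02% of all genes tested had, and its difference there was -0.46 (SE 0.23) and was not called.

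Serpina1a and Serpina1b differed less. Serpina1b was at 4694, 6812 and 5047 CPM in CD Vec and at 3446, 3227 and 3552 CPM in CD c-MET/β-catenin, which did not overlap. Its 2 LPD groups, 4069 to 4823 CPM in Vec and 3180.5 to 4269 CPM with the oncogenes, did overlap. For Serpina1b the log2 fold change was -0.70 (SE 0.18), 1.62-fold lower, on CD and -0.26 (SE 0.18) on LPD. With libraries scaled by total counts it was -0.40 on CD and not called. Serpina1a ranged over 1751 to 3188 CPM in CD Vec and over 1906 to 2183 CPM with the oncogenes on CD, with the oncogene libraries inside the span of the controls. Its log2 fold change of -0.28 (SE 0.22) on CD was not called and was 0.01 when libraries were scaled by total counts. On LPD every oncogene library of Serpina1a, 1647 to 2540.2 CPM, was below every Vec library, 2702 to 3127 CPM, as for 11.6% of all genes tested, and the difference of -0.47 (SE 0.22) was not called.

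Serpina1e was the most variable copy. It was at 1359, 11305 and 8873 CPM in CD Vec, at 5455, 1979.8 and 2899 CPM in CD c-MET/β-catenin, at 4607, 7376 and 14176 CPM in LPD Vec and at 12240.1, 2877 and 6000.4 CPM in LPD c-MET/β-catenin. All 4 groups overlapped, and the highest control on CD was 8.32 times the lowest. The highest over the lowest Serpina1b library in that group was 1.45. The log2 fold change of Serpina1e on CD was -1.06 with an SE of 0.73, and was not called, where the SE of Serpina1c was 0.26.

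The sum of the 5 copies, which depends less on how reads were shared between them, was at 13099, 28928 and 23018 CPM in CD Vec and at 12551, 8816 and 10525 CPM in CD c-MET/β-catenin. The lowest control and the highest oncogene library nearly touched. In LPD Vec the sum was at 18182, 18728 and 27247 CPM and in LPD c-MET/β-catenin at 23293, 10994 and 17212 CPM, which overlapped. The sum differed from Vec by a log2 fold change of -1.03 (SE 0.32), 2.04-fold lower, on CD and -0.32 (SE 0.32) on LPD. The call on CD was lost when CD Vec 2 (-0.77), CD Vec 3 (-0.97), CD c-MET/β-catenin 2 (-0.91) or CD c-MET/β-catenin 3 (-1.02) was left out, and with total counts (-0.73). The copies took 0.989% to 2.66% of all counts of a library.

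The make-up of the sum can be read within each library and so is free of scaling between libraries. Serpina1c and Serpina1d together stood to Serpina1a and Serpina1b together at ratios of 0.821, 0.761 and 0.835 in CD Vec. In LPD Vec the ratios were 0.748, 0.676 and 0.66, and in LPD c-MET/β-catenin 0.723, 0.682 and 0.733. In CD c-MET/β-catenin they were 0.261, 0.273 and 0.397. The 9 libraries of the other groups therefore lay between 0.66 and 0.835, and the 3 CD c-MET/β-catenin libraries lay well below them. The share of Serpina1c in the sum was 16.5% ± 3.64 (SD, n = 3) in CD Vec and 8.2% ± 2.45 with the oncogenes on CD, and 14.6% ± 4.66 and 15.3% ± 4.76 in the LPD groups. The share of Serpina1a was 12% ± 1.23 and 20% ± 3.83 on CD and 14% ± 2.38 and 13% ± 3.27 on LPD. The share of Serpina1e, 10.4% to 52.5%, overlapped in all groups.

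**Figure D2:**
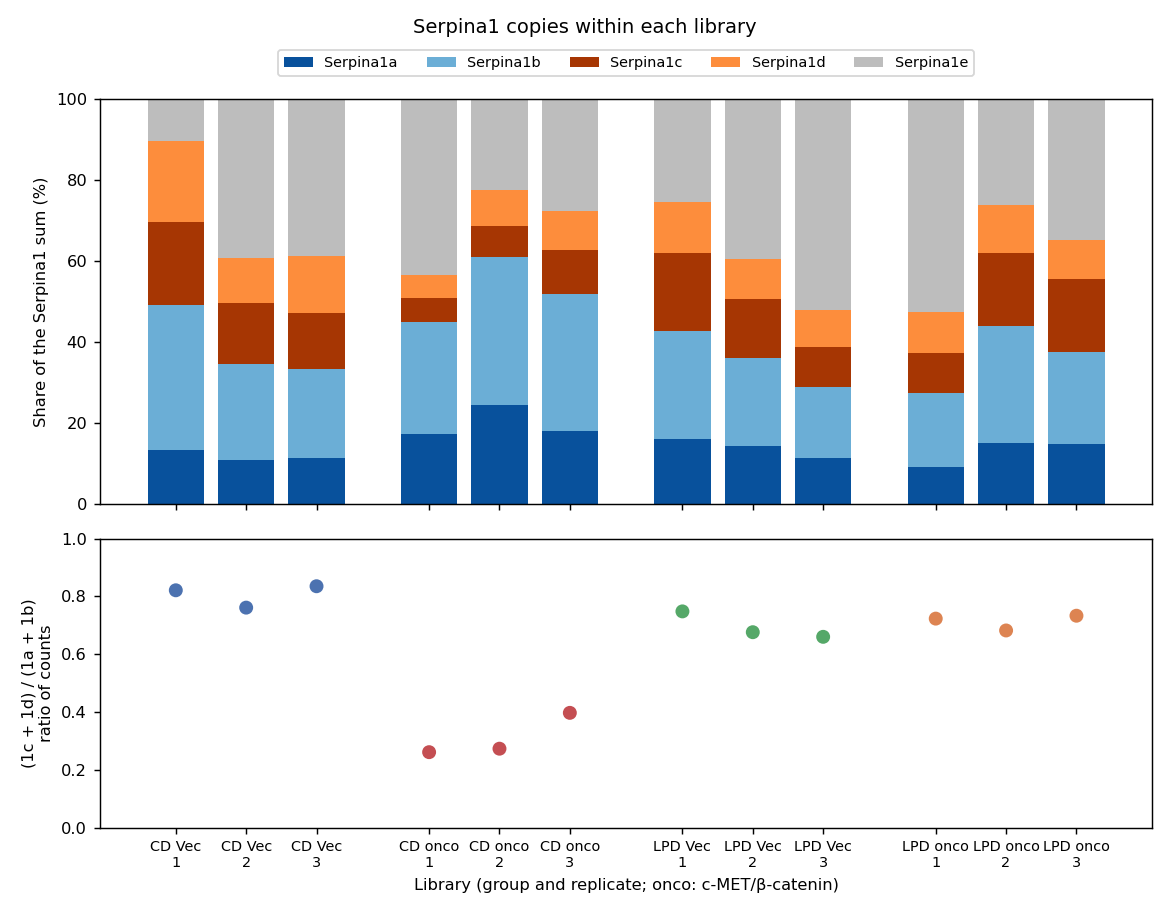
Upper panel, share of each copy in the Serpina1 sum (%) in the 12 libraries. Lower panel, the ratio of Serpina1c and Serpina1d to Serpina1a and Serpina1b in the same libraries, which is 0.261 to 0.397 in CD c-MET/β-catenin ("onco") and 0.66 to 0.835 in the others.

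Levels of different genes were set side by side per kb of transcript, and since the copies differ in how much of their length is their own and the handling of shared reads is not known, the order among the 5 copies is uncertain. On this scale Serpina1e had the highest mean level in CD Vec, 5544 ± 4004 CPM per kb (SD, n = 3), followed by Serpina1b at 3958 ± 814, Serpina3k at 2556 ± 1310.4, Serpina1c at 2512 ± 639, Serpina1d at 2172 ± 272 and Serpina1a at 1862 ± 534. Except for Serpina1b and Serpina3k, the neighbours in this order differed by less than the larger of their SDs. Serpina4-ps1, Serpina6 and Serpina3n followed at 329.9 ± 384, 215 ± 9.13 and 199 ± 47.7, and Serpina12 was lowest at 47.1 ± 20.2. In CD c-MET/β-catenin Serpina1c, at 633 ± 185, Serpina1d, at 602 ± 116, and Serpina3k, at 595 ± 348, were below Serpina1a, at 1529 ± 111, and Serpina4-ps1 was lowest, at 4.56 ± 3.57.

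In the α1-antichymotrypsin branch, Serpina3k and Serpina3n parted. Serpina3k was at 2977, 8232 and 4561 CPM in CD Vec, at 2031, 671 and 969 CPM in CD c-MET/β-catenin, at 3552, 4479 and 5752 CPM in LPD Vec and at 6160.2, 3365 and 4191 CPM in LPD c-MET/β-catenin. The CD c-MET/β-catenin libraries were the lowest 3. Against Vec it differed by -2.10 on the log2 scale (SE 0.45), 4.30-fold lower, on CD and by -0.01 (SE 0.43) on LPD. The call on CD was lost with a term for the 3 runs of output numbers in the table headers (-2.52). Serpina3n, known as an inhibitor of granzyme B and as an acute phase protein, was at 301, 491 and 439.6 CPM in CD Vec and at 895, 350.3 and 364 CPM in CD c-MET/β-catenin. Only CD c-MET/β-catenin 1 stood above the controls. The log2 fold change of Serpina3n on CD was 0.39 (SE 0.34) with that library and -0.20 without it, and its levels on LPD were 245 to 378 CPM in both groups. Within a library, Serpina3k exceeded Serpina3n by 1.91 to 2.66 times in CD c-MET/β-catenin and by 9.49 to 18.1 times in the other 9 libraries. These ratios are of counts and are not adjusted for length, the transcripts being 2057 and 2064 bases long.

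Serpina4-ps1 had the largest difference of the 10. It was at 63, 988 and 222 CPM in CD Vec and at 8.72, 8.32 and 0.562 CPM in CD c-MET/β-catenin, which in the last of these is 15 counts. In LPD Vec it was at 41.9, 144 and 184 CPM and in LPD c-MET/β-catenin at 319.7, 175 and 268 CPM. No CD c-MET/β-catenin library came near the others, and the controls themselves spread widely. Its log2 fold change was -6.17 (SE 1.19) on CD, where the mean was 72.3 times lower, and 1.05 (SE 0.95) on LPD. Much of the size on CD rested on CD Vec 2, without which the value was -4.60 and still called.

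The hormone carrier and vaspin differed from each other as well. Serpina12 was at 101, 249 and 171 CPM in CD Vec and at 69, 66.5 and 63.3 CPM in CD c-MET/β-catenin. In LPD Vec it was at 102, 174 and 229 CPM and in LPD c-MET/β-catenin at 312, 146 and 146 CPM. The log2 fold change was -1.39 (SE 0.39), 2.62-fold lower, on CD, and the call was lost without CD Vec 2 (-1.04). Serpina6 was at 361, 332 and 341 CPM in CD Vec and at 149, 999 and 851 CPM in CD c-MET/β-catenin, so that CD c-MET/β-catenin 1 lay below the controls and the other 2 above them. Its log2 fold change was 0.95 (SE 0.51) with all libraries and 1.42, which was called, without CD c-MET/β-catenin 1. On LPD Serpina6 was at 392, 244 and 245 CPM in Vec and at 336, 545 and 391 CPM with the oncogenes, which overlapped.

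**Figure D3:**
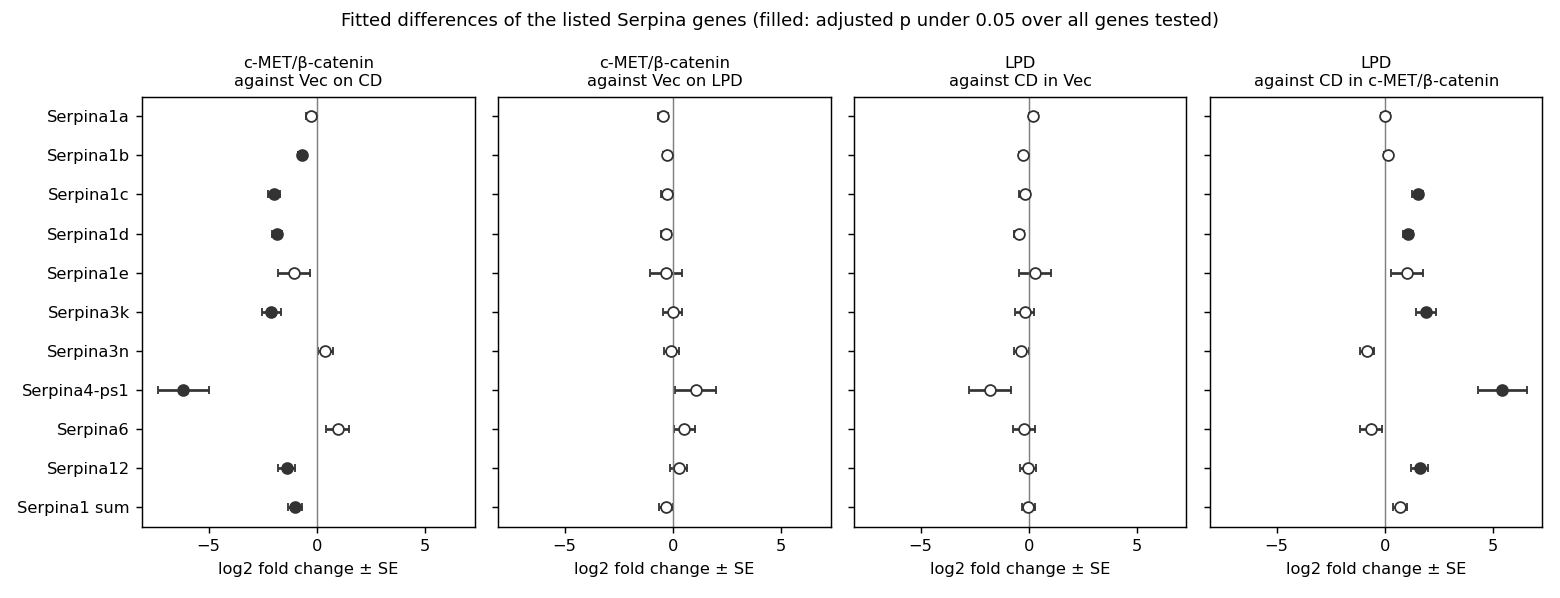
Log2 fold change with its SE for each listed gene and the Serpina1 sum in the 4 comparisons of groups, filled where the adjusted p over all genes tested was under 0.05. Filled points stand in the CD oncogene comparison (6 genes and the sum, all lower) and in the diet comparison of the c-MET/β-catenin livers (5 genes, all higher).

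On LPD the question was whether the oncogenes act on the same genes when protein is scarce. None of the 10 listed genes was called between LPD c-MET/β-catenin and LPD Vec, where 1.32% of all genes tested were. By edgeR 0 of them had an unadjusted p under 0.05 either, and DESeq2 called 0. The log2 fold changes ran from -0.47 for Serpina1a to 1.05 for Serpina4-ps1, with a median of -0.17, and Serpina1a was the listed gene whose libraries did not overlap. In Vec livers none of the 10 was called between LPD and CD, where 0.308% of all genes tested were. Again 0 had an unadjusted p under 0.05 and DESeq2 called 0. The log2 fold changes ran from -1.79 (SE 0.97) for Serpina4-ps1, which was -0.22 without CD Vec 2, to 0.28 (SE 0.73) for Serpina1e, and the Serpina1 sum differed by -0.02 (SE 0.32).

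Between diets in the c-MET/β-catenin livers, 5 of the 10 were called, all of them higher on LPD, and these were Serpina1c, Serpina1d, Serpina3k, Serpina4-ps1 and Serpina12. Of all genes tested, 20.0% were called here and 8.66% were called higher. These 5 were higher in every LPD library than in any CD library, as were 19.2% of all genes tested. This comparison uses the CD c-MET/β-catenin libraries of the CD oncogene comparison, so the 2 are not independent. Glul and Axin2, the targets of β-catenin, were also lower on LPD here, with means of 3497 against 7524 CPM (-1.11, SE 0.21) and of 32.5 against 74.4 CPM (-1.20, SE 0.22). With the run term both of these calls were lost (-0.92 and -0.98). Cholangiocyte markers summed to 40.8 to 52.7 CPM against 121 to 382 CPM, with 2 of 5 tested called lower, and neutrophil markers to 3.09 to 5.99 CPM against 7 to 18.5 CPM, with 2 of 3 called lower. Of the 6 stellate cell and fibroblast markers, which summed to 229.7 to 309 CPM against 247 to 596 CPM, 3 were called lower and 2 higher. With the run term 4 of the 15 marker calls in this comparison were kept, those of Krt19, Spp1, Dcn and Clec4g, and Col1a1 went from -3.89 to -1.48. The part of these genes in the Serpina values was not tested. Serpina1c was 2.85-fold higher (log2 fold change 1.51, SE 0.26), Serpina1d 2.10-fold (1.07, SE 0.23), Serpina3k 3.74-fold (1.90, SE 0.45), Serpina12 3.04-fold (1.60, SE 0.39) and Serpina4-ps1 43.2-fold (5.43, SE 1.15). With LPD c-MET/β-catenin 1 left out, Serpina12 was at 1.15 and not called. Serpina1a and Serpina1b differed by 0.02 (SE 0.22) and 0.15 (SE 0.18), and the Serpina1 sum by 0.69 (SE 0.32), which was not called. Serpina3n was at -0.82 (SE 0.34), also not called, and Serpina6 was at -0.65 (SE 0.51), or -1.13 and called without CD c-MET/β-catenin 1.

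The difference between the diets in the effect of the oncogenes, which includes any difference in tumor burden, was itself fitted. It was called for 3 of the 10, all positive, that is less low or higher with the oncogenes on LPD, where 8.91% of all genes tested were called and 4.49% were called higher. Lower genes were 49.6% of all calls, or 71.0% with total counts. These were Serpina1c at 1.70 (SE 0.36), Serpina1d at 1.53 (SE 0.32) and Serpina4-ps1 at 7.22 (SE 1.49) on the log2 scale. Serpina3k at 2.10 (SE 0.62) and Serpina12 at 1.65 (SE 0.54) were not called, and the Serpina1 sum was at 0.71 (SE 0.45). None of the 10 was called without LPD Vec 2, and 5 were called without CD Vec 1. For Serpina4-ps1 the difference was 5.65 without CD Vec 2. Serpina3k was also called without CD c-MET/β-catenin 1, at 2.67.

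The headers of the count table number the outputs. For the run term these numbers were cut into 3 runs, wherever the next number was more than 5 higher. Of the CD groups only CD Vec 3 and CD c-MET/β-catenin 3 share a run, so the comparison within that run rests on 1 library a side. There Serpina1c was 2.76-fold lower, Serpina1d 3.21-fold, Serpina3k 4.71-fold, Serpina12 2.7-fold and the Serpina1 sum 2.19-fold lower with the oncogenes, Serpina1b was 1.42-fold lower and Serpina4-ps1 was at 0.562 against 222 CPM. A term for the runs leaves CD c-MET/β-catenin 3 alone to stand for its group. With it, Serpina1c was at -1.40, Serpina1d at -1.60 and Serpina4-ps1 at -9.84 on CD. The calls of Serpina1b (-0.53), Serpina3k (-2.52) and Serpina12 (-1.79) were lost. Between diets in the c-MET/β-catenin livers Serpina1c was then at 1.10, Serpina1d at 0.79, Serpina3k at 2.24, Serpina4-ps1 at 8.81 and Serpina12 at 1.67. None of these kept its call there, and none was called for the difference between diets. Within the same run, the 3 LPD c-MET/β-catenin libraries had a mean of 2458 CPM of Serpina1c against 1147 CPM in CD c-MET/β-catenin 3, and of 4572 against 969 CPM of Serpina3k.

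Along the chromosome the called genes were not in 1 block. Serpina1d lies between Serpina1b and Serpina1a, and Serpina1c between Serpina1a and Serpina1e. Serpina11, between Serpina1e and Serpina12, had a log2 fold change of 0.00 (SE 0.21) on CD and the flanking Serpina10 one of 0.04 (SE 0.25). Of the 19 other annotated Serpina genes, 8 were tested. On CD, 3 of them rose by edgeR's test adjusted over all genes, Serpina3f at 1.49 (SE 0.41, adjusted p = 0.0146), Serpina3g at 1.09 (SE 0.33, adjusted p = 0.0220) and Serpina7, thyroxine-binding globulin of the X chromosome, at 2.42 (SE 0.61, adjusted p = 0.0103), and Serpina9 fell by 3.29 (SE 0.97, adjusted p = 0.0210) from levels of 0.764 to 10.6 CPM. With a term for the runs none of these 4 was called, at 0.85 for Serpina3f, 0.62 for Serpina3g, 2.30 for Serpina7 and -3.51 for Serpina9. None of the 8 was called by the main edgeR fit in the other comparisons. Serpina3m between diets in the oncogene livers was called by DESeq2 (-0.91) and with total counts (-0.98), and Serpina3c for the difference between diets by DESeq2 (3.04). On CD, where the main fit called neither, Serpina3m was called with total counts (0.93) and Serpina3c by DESeq2 (-2.04). Serpina3m, the neighbour of Serpina3n, was closer in sequence to Serpina3k (91.7% of coding bases) than Serpina3n, Serpina3f or Serpina3g, the other Serpina3 genes aligned. Serpina3m was at 0.65 (SE 0.32) on CD and was highest, at 676 CPM, in CD c-MET/β-catenin 1, the library in which Serpina3n was highest.

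**Figure D4:**
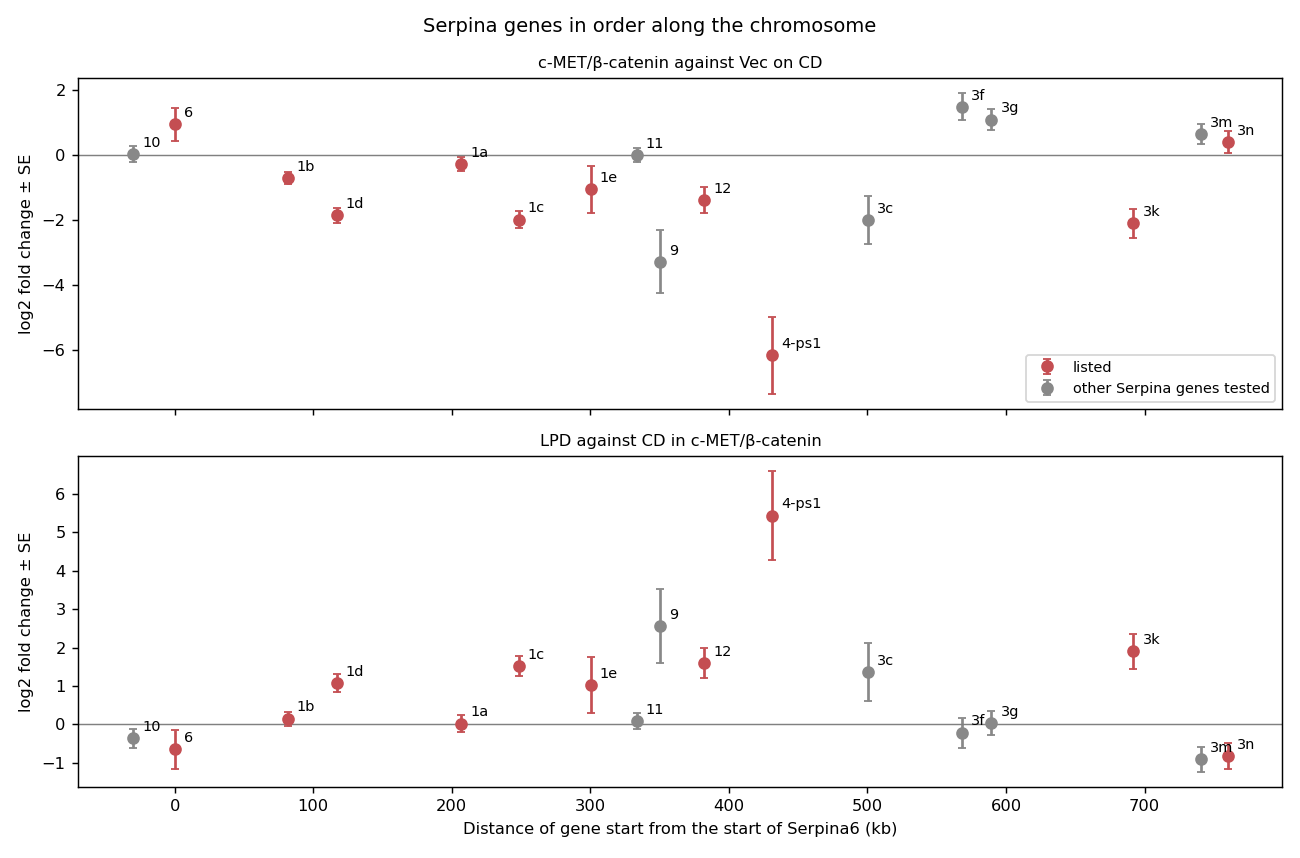
Log2 fold change with its SE of the tested Serpina genes of chromosome 12 against the distance of the gene start from that of Serpina6 (kb), for the oncogenes relative to Vec on CD (upper) and for LPD relative to CD in c-MET/β-catenin livers (lower). Serpina1a, Serpina10 and Serpina11 sit near 0 in both, between or beside genes far from 0.

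Serpina1e and Serpina3k ranked the libraries alike inside each group. In CD Vec both were highest in replicate 2 and lowest in replicate 1, in CD c-MET/β-catenin highest in replicate 1 and lowest in replicate 2, in LPD Vec highest in replicate 3 and lowest in replicate 1, and in LPD c-MET/β-catenin highest in replicate 1 and lowest in replicate 2. Serpina4-ps1 and Serpina3n each had that order in 3 of the 4 groups. Serpina12 and Serpina1b had it in 2, Serpina1a, Serpina1c and Serpina1d in 1, and Serpina6 in none. The pattern was noticed in these libraries and has no test.

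**Figure D5:**
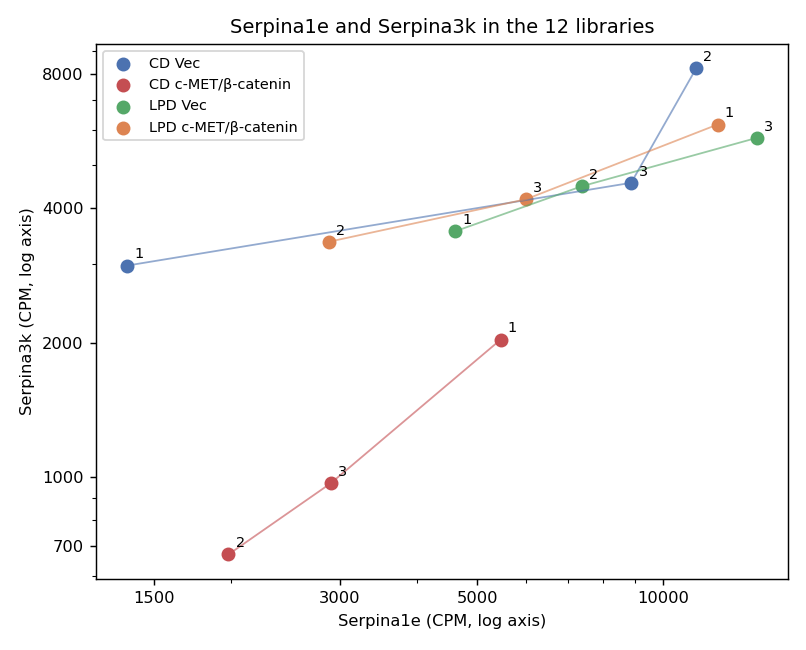
Serpina1e against Serpina3k in CPM, both on log axes, in the 12 libraries, with lines joining the replicates of a group. Each line rises, and the CD c-MET/β-catenin line, at 671 to 2031 CPM of Serpina3k, lies below the others, at 2977 to 8232 CPM.

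Over the 12 libraries and 9611 genes, the Serpina1 sum was most like C8b, which codes for a chain of complement C8 (Pearson r of log2 CPM 0.973), Mug1, a murinoglobulin that traps proteases (0.951), Plg, plasminogen (0.944), Ginm1 (0.927) and Zmym2 (0.916). Serpina3n was most like Zscan25 (0.903), Yeats4 (0.897), Eppk1 (0.890), Smim7 (0.871) and Gtf2a2 (0.866). These r values are descriptions across libraries of 4 groups.

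Among the known partners of the serpins, both tested enzymes that α1-antitrypsin inhibits rose on CD. Prtn3, proteinase 3, was at 0.153 to 0.989 CPM in CD Vec and at 12.7 to 38.7 CPM with the oncogenes (log2 fold change 5.64, SE 0.69, adjusted p = 0.000129 by edgeR). Elane, neutrophil elastase, rose from 0.0521 to 0.171 CPM to 0.78 to 1.1 CPM (2.84, SE 0.56, adjusted p = 0.00212). Klkb1, plasma prekallikrein made by the liver, fell (-1.18, SE 0.24, adjusted p = 0.00292), and 3 of the 6 listed targets passed the filter. With the run term Elane (3.11) and Klkb1 (-0.99) were not called. In the same libraries the neutrophil markers summed to 7 to 18.5 CPM, against 3.3 to 5.26 CPM in CD Vec, with 2 of 3 tested called higher (S100a8 at 2.20 and S100a9 at 1.95, or 0.98 and 0.81 and not called with the run term), and their part in the Prtn3 and Elane values was not tested. Other plasma serpins differed in both directions on CD. Serpinc1, antithrombin, fell (-0.83, SE 0.15, adjusted p = 0.00126), as did Serpinf1, pigment epithelium-derived factor (-1.43, SE 0.16, adjusted p = 6.90e-05), while Serpinf2, α2-antiplasmin, rose by 0.47 (SE 0.15). The calls of Serpinc1 and Serpinf2 were lost with the run term (-0.61 and 0.32).

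The counts for genes of the pathways that act on serpins are to be read against all genes tested on CD, of which 35.4% were called and 16.7% were called lower. Of 10 liver transcription factors tested, 3 fell on CD and none rose, Cebpa (-1.16, SE 0.19), Foxa2 (-0.71, SE 0.16) and Onecut1 (-2.71, SE 0.54), with Hnf4a at -0.09 (SE 0.18). Of 10 genes for export and degradation of secretory proteins, 4 fell, among them Lman1, the cargo receptor for α1-antitrypsin (-0.96, SE 0.13, adjusted p = 0.000283), and 2 of them, Lman1 and Sec24a, were called higher on LPD in the c-MET/β-catenin livers, calls that were lost with the run term (0.66 and 0.53). Of 7 genes of growth hormone and Stat5 signalling, Ghr (-1.65), Igf1 (-1.17) and Igfals (-1.74) fell and Stat5a (1.17) rose. Of 7 genes of glucocorticoid action, the field of Serpina6, only Hsd11b1, which regenerates active glucocorticoid, was called, at -1.85 (SE 0.22). With the run term the CD calls of Cebpa (-0.95), Foxa2 (-0.59), Onecut1 (-3.44) and Lman1 (-0.90) were lost. So were those of Sec23b (-0.74), Edem1 (-0.39), Ghr (-1.26), Igf1 (-1.35), Igfals (-1.66) and Stat5a (0.33), while Sec24a and Hsd11b1 kept theirs.

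Acute phase genes, the company of Serpina3n, were called in both directions, at shares not far from the 35.4% of all genes. Of 14 tested, 5 rose on CD (Hp, Hpx, Lcn2, Lrg1 and Apcs) and Orm1 fell, and of 12 tested genes of IL-6 type signalling 4 rose (Osmr, Stat3, Socs3 and Cebpd) and Il1rap fell. With the run term all 6 acute phase calls were lost, from -0.84 for Orm1 to 4.18 for Lcn2, and so were the 4 rises of the IL-6 list, at 1.23 for Osmr, 0.21 for Stat3, 0.69 for Socs3 and 0.27 for Cebpd. Stat3 was at 276 CPM and Cebpd at 24.8 CPM in CD c-MET/β-catenin 1, and both were lower in the other 2 libraries of that group, at 119 and 120.0 CPM and at 6.06 and 9.79 CPM. The medians of the acute phase and IL-6 lists were 0.18 and 0.35, against 0.39 for Serpina3n, which was -0.20 without CD c-MET/β-catenin 1. On LPD with the oncogenes against Vec, Saa3 was the 1 gene called of these 26, a call lost with the run term (1.62). Of the 36 genes called on CD among these lists, the other Serpina genes and the oncogene check, 7 kept the call with the term for the runs, namely Glul, Axin2, Prtn3, Serpinf1, Hsd11b1, Sec24a and Il1rap, and all 36 kept their direction. With total counts 1 of the 36 lost the call, Orm1. Between diets in the c-MET/β-catenin livers 3 of 25 such calls were kept with the run term, and 2, of Klkb1 and Serpinc1, were lost with total counts.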

How the data were processed

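The 12 bulk liver RNA-seq libraries, 3 in each of 4 groups, were analysed. The authors aligned reads to mm10 with HISAT2 and counted them per gene with featureCounts, and the deposited values are raw counts per Entrez gene. The labels name an rRNA depletion kit and the methods a stranded mRNA kit, and strand and multi-mapping settings are not given in the sources used here. The columns of the CD libraries carry HPD in their names and were matched to the samples through the labels, which call the controls WT, and what the runs of output numbers in the headers mark is not given in the sources used here. RefSeq symbols of GRCm38.p6 were matched for 25275 of 27179 genes (93.0%).

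The counts were analysed with edgeR 4.0.16 in R 4.3.3, with TMM scaling (factors 0.864 to 1.12), filterByExpr (13947 genes tested, 13232 not) and robust quasi-likelihood tests over all 4 groups, adjusted by Benjamini-Hochberg with a threshold of 0.05. The common dispersion gave a biological coefficient of variation of 23.2%. The Serpina1 sum was fitted as 1 row in place of the 5 copies. DESeq2 1.42.0 and other settings were alternatives, and the code was tested on simulated data. Sequences came from GENCODE M21 transcripts and RefSeq promoter windows and were aligned with MAFFT 7.526. The genes named were the 10 members, other Serpina genes, fixed lists and the 5 genes most like the Serpina1 sum and Serpina3n with a mean of at least 5 CPM. The members and all lists were chosen with earlier results of these data known. Replicates are separate mice. Same-numbered replicates did not deviate together (r from -0.183 to 0.167 in 18 pairs, 2 of them above 0.1), so numbers were not used to pair samples.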

Additional observations from a re-analysis of the deposited data

Results flagged for a closer look

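The fitted difference between the diets in the effect of c-MET/β-catenin, which includes any difference in tumor burden, was called for 3 of the 10 genes. Of all genes tested, 8.91% were called and 4.49% were called higher. The difference was 1.70 (SE 0.36, adjusted p = 0.0165 by edgeR) on the log2 scale for Serpina1c, 1.53 (SE 0.32, adjusted p = 0.0169 by edgeR) for Serpina1d and 7.22 (SE 1.49, adjusted p = 0.0175 by edgeR) for Serpina4-ps1. Without CD Vec 2 the value of Serpina4-ps1 was 5.65. The list was chosen with these results known, so the p values describe the 3 genes and do not test them. In each, the 3 CD c-MET/β-catenin libraries lay below the 9 others. The calls of all 3 were lost with a term for the runs of output numbers, at 1.21 for Serpina1c, 1.26 for Serpina1d and 10.85 for Serpina4-ps1. Without LPD Vec 2 they were also lost, at 1.64, 1.42 and 7.33 in turn. That of Serpina4-ps1 was lost with no filter on low counts as well (7.21).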

How the results depend on the processing

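Of the 10 genes, 5 to 7 were called on CD and 4 to 6 between diets in the oncogene livers when libraries were left out in turn, and none in the other 2 comparisons of groups. For the difference between diets this range was 0 to 5. With a term for runs these counts were 3 on CD, 0 between diets and 0 for the difference, and DESeq2 called 5 for the difference. The Serpina1 sum on CD was -0.73 with total counts and -1.20 with the run term, neither called, and ran from -1.28 to -0.77 with libraries left out. Between diets in Vec the sum was 0.10 with total counts and ran from -0.27 to 0.24. The other turns of direction were all in values that were not called. With total counts they were Serpina1a at 0.01 on CD and -0.06 between diets with the oncogenes, Serpina3k at 0.10 and Serpina3n at 0.03 on LPD, and Serpina12 at 0.08 between diets in Vec. The run term gave -0.11 for Serpina3n on CD, 0.07 for its difference between diets and -0.09 for Serpina1e between diets in Vec. With libraries left out, Serpina3n ran from -0.20 to 0.62 on CD, from -0.27 to 0.05 on LPD and from -0.70 to 0.12 for the difference. On LPD Serpina1e ran from -0.97 to 0.23, Serpina3k from -0.28 to 0.19 and Serpina12 from -0.20 to 0.54. Between diets in Vec Serpina1c ran from -0.33 to 0.02, Serpina1e from -0.26 to 0.76, Serpina3k from -0.47 to 0.28 and Serpina12 from -0.33 to 0.30. Serpina1a ran from -0.13 to 0.18 between diets with the oncogenes and from -0.38 to 0.01 for the difference. The causes were not tested. Replicate numbers do not pair the mice. With a replicate block, the counts of listed genes called stayed at 6, 0, 0, 5 and 3, and over all genes the diets in Vec gave 16 calls in place of 43 and the difference between diets 812 in place of 1243. Over all genes the run term gave 945 in place of 4933 on CD, 75 in place of 184 on LPD, 16 between diets in Vec, 618 in place of 2784 with the oncogenes and 85 for the difference. DESeq2 gave 471 on LPD, 340 between diets in Vec and 2010 for the difference. With only the 2 groups compared, the counts were 3014 on CD, 505 on LPD and 3 between diets in Vec, and total counts gave 66 there. With libraries left out they were as low as 52 on LPD, 5 between diets in Vec (up to 104), 1585 with the oncogenes and 391 for the difference. Total counts moved the median of all genes on LPD to 0.121 and for the difference to -0.156. The run term left CD c-MET/β-catenin 3 alone to stand for its group. The 3 mice a group and the likeness of the Serpina1 copies limit all values.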

Other observations

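A look at genes most like Serpina4-ps1, made after its values were seen, gave Mup21 (Pearson r of log2 CPM 0.956 over 12 libraries, across 9620 genes), followed by Vamp4 (0.956), Mup13 (0.944), Mup18 (0.942) and Rb1cc1 (0.942). The Mup genes code for major urinary proteins, which male mouse liver secretes in large amounts. Mup21 was at 139.9, 1071 and 489 CPM in CD Vec, at 26.4, 15.1 and 15.2 CPM in CD c-MET/β-catenin, at 131, 203 and 450.1 CPM in LPD Vec and at 1265, 203 and 349 CPM in LPD c-MET/β-catenin. The CD c-MET/β-catenin libraries were the lowest 3, as for Serpina4-ps1. Mup genes are near copies of each other, so their single values are uncertain. Serpina1e was most like B3galt1 (0.894), followed by Cyp7b1 (0.844), an enzyme of bile acid synthesis, and C6 of the complement cascade (0.843). Cyp7b1 was at 54.6, 510.2 and 256 CPM in CD Vec and at 53.9, 47.6 and 45.4 CPM in CD c-MET/β-catenin. In LPD Vec it was at 129, 214 and 314 CPM and in LPD c-MET/β-catenin at 564, 152 and 123 CPM, and the lowest CD Vec library was the same as for Serpina1e.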
